A study of Rattus norvegicus with 5 samples.

Results

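The difference between hypoxia with In-Cl and hypoxia alone was described gene by gene in cultured rat vascular smooth muscle cells. For each row of the deposited tables the log2 value of the hypoxia library was subtracted from that of the In-Cl library, so a positive difference means a higher value with In-Cl. Rows were kept when their mean normalised read count over the 5 libraries was at least 100, with 1 row per gene symbol, which left 8814 genes of the 17048 rows. Just inside this limit were Zfp418 (mean 100.03, log2 difference 0.36) and Rgs17 (mean 100.06, -0.43). Just outside were Acvr1b (mean 99.92, 0.16) and Cd80 (mean 99.90, 0.60).

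Vascular smooth muscle cells of the rat were grown on coated plastic, and RNA was sequenced in 5 libraries, 1 per condition. The In-Cl library came from cells pretreated with In-Cl at 0.1 µM and then kept in hypoxia for 24 h. The DPN library (0.1 µM) and the E2 library (10 nM) were made in the same way, the hypoxia library had 24 h of hypoxia with no compound, and the control had neither. With 1 library a side there is no replicate spread to set a difference against and no test, so each statement is about these libraries. The 95% intervals given with the differences take in the error of counting reads and nothing else.

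In-Cl is an indazole compound and is named with DPN and E2 as an estrogen receptor agonist. Estradiol (E2) is the natural hormone, and DPN, a diarylpropionitrile, prefers estrogen receptor beta. An estrogen receptor that has bound a ligand acts as a transcription factor at estrogen response elements or through other DNA-bound factors, and recruits coregulator proteins that open or close chromatin. The title of the study sets In-Cl against cyclooxygenase-2, the enzyme encoded by Ptgs2 that makes the precursor of prostaglandins and that hypoxia can induce in vascular cells. Smooth muscle cells in culture shift between a contractile state, rich in actin, calponin and transgelin, and a synthetic state that divides and lays down matrix.

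The libraries held between 20173080 and 24366258 approximate reads, with 22068534 with In-Cl and 22126541 in hypoxia. All 9 smooth muscle markers had at least 3 reads in every library, and their summed normalised counts ranged from 199292 with In-Cl to 272806 in hypoxia. Of the endothelial markers Cdh5 and Kdr were listed at 0 in every library, as were the leukocyte markers Itgam and Cd3e. The endothelial receptor gene Tek was the exception, with a normalised count of 436 with In-Cl and 370 in hypoxia. The fibroblast markers summed to 286236 with In-Cl and 286085 in hypoxia, nearly all of it Col1a1, while the fibroblast marker Dpt was listed at 0.

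In-Cl differed from hypoxia by small amounts at most genes. The median log2 difference was 0.00, and 90% of genes lay between -0.34 and 0.42. At least 2-fold higher with In-Cl were 12 genes (0.136% of those compared) and at least 2-fold lower 7 (0.0794%); after quantile normalization these counts were 11 and 10. At a limit of 1.5-fold, 158 genes were higher (1.79%) and 50 were lower (0.567%). The counting interval lay above 0 for 2075 genes (23.5%) and below 0 for 2166 (24.6%). When the mean of the hypoxia, DPN and E2 libraries was the baseline in place of hypoxia alone, 53 genes were at least 1.5-fold higher and 20 lower, of which 39 and 12 were among those called against hypoxia.

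**Figure D1:**
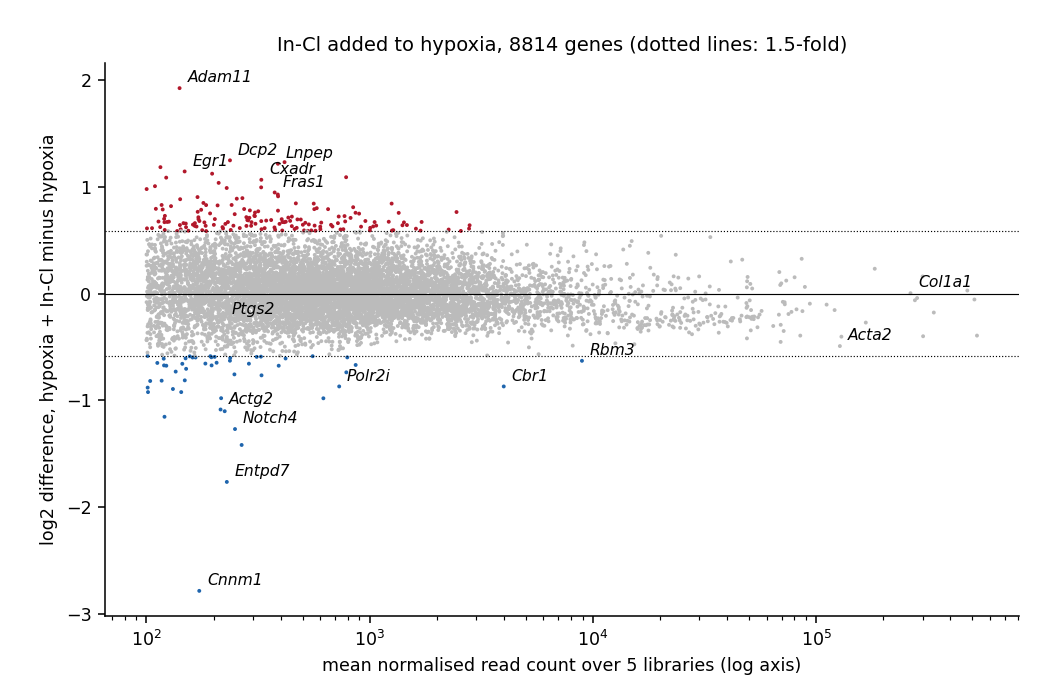
Log2 difference between the In-Cl and hypoxia libraries (vertical axis) against the mean normalised read count over 5 libraries (log axis) for 8814 genes, each point 1 gene. Red points are the 158 genes at least 1.5-fold higher with In-Cl and blue points the 50 at least 1.5-fold lower; most of both have a mean under 1000.

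The spread of differences from hypoxia was wider with In-Cl than with the other compounds. The middle 50% of genes spanned 0.302 on the log2 scale for In-Cl minus hypoxia, 0.194 for DPN minus hypoxia and 0.204 for E2 minus hypoxia. These 3 comparisons share the hypoxia library. Between compounds the span was 0.245 for In-Cl minus DPN and 0.179 for DPN minus E2. The In-Cl library lay above all 4 other libraries at 2027 genes (23%) and below all 4 at 2308 (26.2%). The hypoxia library lay above all others at 1248 genes (14.2%) and below all others at 1519 (17.2%).

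**Figure D2:**
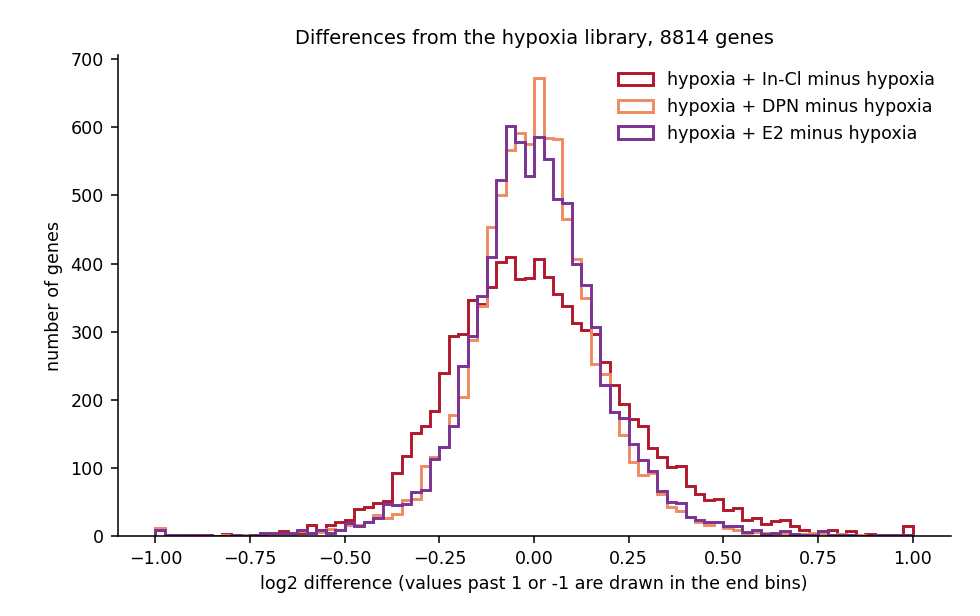
Number of genes (vertical axis) by log2 difference from the hypoxia library (horizontal axis, bins of equal width, values past 1 or -1 in the end bins) with In-Cl, DPN and E2. The In-Cl curve is lower at its centre and wider on both flanks than the other 2.

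The genes past 1.5-fold were picked on In-Cl minus hypoxia, which in itself favours these libraries as the extremes. Among the 158 higher genes, In-Cl was the highest of the 5 libraries at 141 and hypoxia the lowest at 79, with both true at 65. Among the 50 lower genes, In-Cl was the lowest library at 36 and hypoxia the highest at 33, with both true at 20. Over all genes In-Cl was highest at 23% and lowest at 26.2%, and hypoxia was highest at 14.2% and lowest at 17.2%. The direction varied with abundance. The median difference was 0.04 in the lowest sixth of genes by mean count and -0.07 in the highest sixth. In the highest sixth the interval lay below 0 for 745 of 1469 genes and above 0 for 402. Shares over all genes that stand beside the gene lists further on are not matched for abundance.

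The gene furthest above hypoxia was Adam11, a catalytically inactive member of the ADAM family known mainly from the brain. Adam11 had a normalised count of 297 with In-Cl, 53.5 under DPN and 192 under E2, against 77.6 in hypoxia and 83.3 in the control. It was 3.79-fold higher with In-Cl than in hypoxia (log2 1.92, interval 1.57 to 2.32). The In-Cl and E2 libraries stood apart from the other 3, and DPN was the lowest.

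Next came Dcp2, which removes the cap from messenger RNA and so starts its decay. Dcp2 had a normalised count of 389 with In-Cl, 177 under DPN and 233 under E2, against 163 in hypoxia and 220 in the control, a log2 difference of 1.25 (interval 0.98 to 1.53). Only the In-Cl library exceeded the control by a wide margin. Myot, which encodes the actin-bundling protein myotilin, lies beside Dcp2 in the row order and on chromosome 18 with 0 coding genes between them in the RefSeq gene table. Myot had 330 with In-Cl, 147 under DPN and 200 under E2, against 151 in hypoxia and 157 in the control (1.12, interval 0.84 to 1.42). The next row, Mcc, was also past 1.5-fold (0.67), although 1 coding gene of the RefSeq table lies between it and Myot.

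Other genes of the 15 largest differences upward include the following. Atad2b, a bromodomain protein, had 173 with In-Cl, against 75.5 in hypoxia (log2 1.18). Nfib, a nuclear factor I family transcription factor, had 188 with In-Cl, against 87.9 in hypoxia (1.09), and Zdhhc21, a palmitoyltransferase gene next to it, differed by 0.69. Nr2c2, an orphan nuclear receptor, had 541 with In-Cl, 405 under DPN and 428 under E2, against 284 in hypoxia and 280 in the control (0.93, interval 0.72 to 1.15). Phc3, a subunit of polycomb repressive complex 1, had 509 with In-Cl, 306 under DPN and 341 under E2, against 255 in hypoxia and 221 in the control. For Nr2c2 and Phc3 the order of the libraries was In-Cl, E2, DPN, hypoxia and control.

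Egr1, an immediate early transcription factor that serum, stretch and estrogen can induce, had a normalised count of 195 with In-Cl, 177 under DPN and 107 under E2, against 88.0 in hypoxia and 174 in the control. It was 2.21-fold higher with In-Cl than in hypoxia (log2 1.14, interval 0.78 to 1.54). In-Cl, DPN and the control lay close together, and hypoxia and E2 lay below them. The region before the Egr1 start in the RefSeq promoter table (build GRCr8, chr18:26736828-26737077, plus strand, 250 bases up to the start) is shown because it holds 2 CArG boxes, the sites of serum response factor, in capitals, starting at -105 and -83.
Egr1: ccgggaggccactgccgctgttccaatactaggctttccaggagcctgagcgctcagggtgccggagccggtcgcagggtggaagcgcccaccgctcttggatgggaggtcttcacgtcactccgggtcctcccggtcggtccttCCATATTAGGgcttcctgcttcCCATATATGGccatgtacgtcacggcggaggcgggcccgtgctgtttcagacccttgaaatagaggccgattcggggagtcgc
A CArG box was present in 2.44% of 123 matched promoters of genes at least 1.5-fold higher, in 2.44% of 41 of genes at least 1.5-fold lower, in 1.25% of the 7296 matched genes and in 1.64% of all 27457 promoters of the table, searched from 250 bases before to 50 after the start on both strands. The 91 genes with the box had a median difference of 0.01. Srf itself, the gene of serum response factor, had 1173 with In-Cl, against 1368 in hypoxia (-0.22, interval -0.34 to -0.11).

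At the cell surface and in transport, Lnpep was highest. It encodes an aminopeptidase that travels with the insulin-regulated glucose transporter and also cleaves oxytocin, and its normalised count was 596 with In-Cl, 356 under DPN and 481 under E2, against 256 in hypoxia and 250 in the control. Cxadr, a cell adhesion molecule that is also the receptor of coxsackie and adenoviruses, had 496 with In-Cl, 317 under DPN and 381 under E2, against 237 in hypoxia and 204 in the control. At both genes all 3 compounds lay above hypoxia, in the order In-Cl, E2 and DPN. Fras1, an extracellular matrix protein of basement membranes, had 620 with In-Cl, 398 under DPN and 369 under E2, against 321 in hypoxia and 167 in the control (0.95, interval 0.75 to 1.15).

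The remaining genes of the 15 largest differences upward were Klhl11, an adaptor for a ubiquitin ligase (1.04), Tanc2, a scaffold protein (2.01-fold), Trove2, the Ro60 RNA-binding protein (0.99), and Helz2, a helicase that coactivates nuclear receptors (0.98). Each of these 4 had its highest value with In-Cl and its lowest in hypoxia. Chm, which escorts Rab proteins to the enzyme that attaches their lipid anchor, had 467 with In-Cl, 448 under DPN and 358 under E2, against 248 in hypoxia and 422 in the control (0.91, interval 0.69 to 1.14). At this gene the hypoxia library was the one that stood apart.

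**Figure D3:**
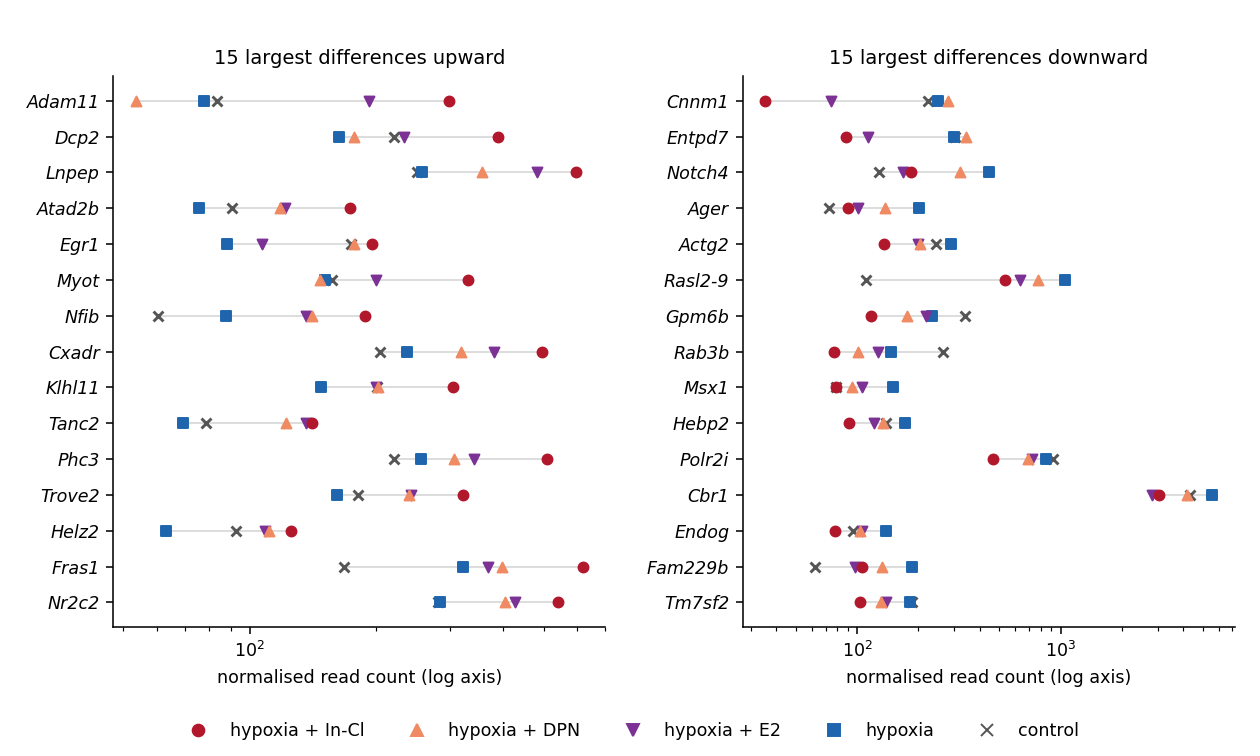
Normalised read count (log axes) in each of the 5 libraries for the 15 named genes furthest above hypoxia with In-Cl (left) and the 15 furthest below (right), 1 symbol per library and no replicates. In the left panel the In-Cl symbol is at the right end at all 15 genes; in the right panel it is at the left end at 9 of 15, and hypoxia is at the right end at 9 of 15.

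The largest differences downward were at a pair of nearby genes. Cnnm1, a cyclin M family membrane protein linked to metal ion transport, had a normalised count of 35.4 with In-Cl, 279 under DPN and 74.4 under E2, against 250 in hypoxia and 223 in the control. It was 6.89-fold lower with In-Cl than in hypoxia (log2 -2.78, interval -3.36 to -2.31). Entpd7, an enzyme that splits nucleoside phosphates inside the cell, had 87.7 with In-Cl, 342 under DPN and 113 under E2, against 300 in hypoxia and 303 in the control (-1.76, interval -2.13 to -1.43). In-Cl and E2 were low at both genes, and the other 3 libraries were close together.

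The homeobox gene Nkx2-3 lies between them in the row order and was under the abundance limit; its counts were 5.84 with In-Cl, 50.5 under DPN and 13.6 under E2, against 45.3 in hypoxia and 40.9 in the control. The other genes in between did not share this size of difference. Got1, the cytosolic aspartate transaminase, differed by -0.25 and the mitochondrial iron carrier Slc25a28 by -0.18. The chromosome of Cnnm1 and Entpd7 is 1 in the RefSeq table, with 3 coding genes between them. The 3 genes were picked out after their values were seen.

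Notch4, a receptor of the Notch family, had 183 with In-Cl, 322 under DPN and 169 under E2, against 443 in hypoxia and 129 in the control (-1.27, interval -1.53 to -1.02). Ager, the receptor for advanced glycation end products, lies near it on chromosome 20 and had 89.8 with In-Cl, 138 under DPN and 101 under E2, against 201 in hypoxia and 72.4 in the control (-1.15, interval -1.54 to -0.80). At Notch4 and Ager hypoxia was the highest library, and In-Cl and E2 lay between the control and DPN. Gpsm3, in the same stretch but under the abundance limit, had 27.6 with In-Cl, against 57.6 in hypoxia, while Pbx2 in the same stretch differed by -0.14. How strand was used in counting is not given in the sources used here, so reads of overlapping genes in such clusters cannot be told apart.

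Pairs of genes past 1.5-fold in the same direction, with at most 3 rows between them in the deposited row order, were counted. On the higher side these were Oxsm with Slc4a7, Dcp2 with Myot, Myot with Mcc, Nfib with Zdhhc21, Snx13 with Ahr, Ormdl1 with Osgepl1, Fgf16 with Atp7a, Fam122b with Plac1, and Plac1 with Map7d3. On the lower side they were Cnnm1 with Entpd7 and Notch4 with Ager. Close rows are not always adjacent genes: in the RefSeq gene table (GRCr8) no coding gene lies between Dcp2 and Myot, Nfib and Zdhhc21 or Snx13 and Ahr, 1 lies between Myot and Mcc and between Ormdl1 and Osgepl1, 2 between Notch4 and Ager, 3 between Fgf16 and Atp7a and between Cnnm1 and Entpd7, 4 between Oxsm and Slc4a7 and 31 between Plac1 and Map7d3, while Fam122b was not matched.

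Further genes of the 15 largest differences downward are given next. Actg2, the smooth muscle gamma actin, had 136 with In-Cl, 205 under DPN and 199 under E2, against 290 in hypoxia and 244 in the control (-1.09, interval -1.40 to -0.79). It is close in sequence to other actin genes, so its counts are uncertain. Polr2i, a small subunit of RNA polymerase II, had 466 with In-Cl, 693 under DPN and 726 under E2, against 852 in hypoxia and 914 in the control (-0.87, interval -1.04 to -0.71). At both genes In-Cl was the lowest library.

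Rasl2-9, a close copy of the Ran gene whose reads may be split with it, had 531 with In-Cl, against 1049 in hypoxia (-0.98). Gpm6b, a membrane glycoprotein (-0.98), Rab3b, a vesicle GTPase (-0.92), Hebp2, a heme-binding protein (-0.89), Endog, a mitochondrial nuclease (-0.82), and Tm7sf2, a sterol reductase of cholesterol synthesis (-0.81), were lowest with In-Cl. Msx1, a homeobox factor (-0.92), and Fam229b (-0.82) were highest in hypoxia, with In-Cl inside the range of the others.

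Ptgs2 was compared because the study's title names its product. Ptgs2 had a normalised count of 218 with In-Cl (221 reads), 222 with DPN and 306 with E2, against 258 in hypoxia (250 reads) and 111 in the control. The log2 difference between In-Cl and hypoxia was -0.24, with an interval of -0.51 to 0.02 that reaches 0. In-Cl and DPN lay slightly below hypoxia, E2 lay above it, and all 4 hypoxic libraries were above the control. Ptgs1, the constitutive cyclooxygenase, was under the abundance limit, with 48 reads with In-Cl and 18 in hypoxia (1.30, interval 0.54 to 2.22). It had 27 reads with DPN, 38 with E2 and 23 in the control, so hypoxia was the lowest library.

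Of the prostanoid list of 25 genes, 14 passed the abundance limit, and their median difference was -0.24, beside 0.00 for all genes compared. The interval lay below 0 for 7 of the 14 and above 0 for 1, beside 24.6% and 23.5% of all genes. Upstream of the cyclooxygenases, Pla2g4a, the phospholipase that frees arachidonic acid, differed by -0.32. Among the enzymes that use the cyclooxygenase product, the prostacyclin synthase Ptgis differed by -0.29, the prostaglandin E synthase Ptges2 by -0.38 and the inducible prostaglandin E synthase Ptges by 0.20 (interval -0.13 to 0.53). Ptges had 171 with In-Cl, 175 under DPN and 140 under E2, against 149 in hypoxia and 32.2 in the control.

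The receptor and transporter members were on both sides. Tbxa2r, the thromboxane receptor, had 455 with In-Cl, 509 under DPN and 508 under E2, against 615 in hypoxia and 354 in the control (-0.43, interval -0.61 to -0.26). Slco2a1, which takes prostaglandins into the cell, differed by -0.42, and Abcc4, which exports them, by 0.32 (interval 0.01 to 0.64). Under DPN as the baseline the list's median was -0.09.

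The largest difference of the list was at Cbr1, a carbonyl reductase that converts prostaglandin E2 to F2 alpha and also clears reactive carbonyls. Cbr1 had a normalised count of 3052 with In-Cl, 4167 under DPN and 2816 under E2, against 5579 in hypoxia and 4320 in the control. It was 1.83-fold lower with In-Cl than in hypoxia (log2 -0.87, interval -0.93 to -0.81), and only E2 was lower. Hypoxia was the highest of the 5 libraries. The region before its start (RefSeq, GRCr8, chr11:46346155-46346404, plus strand, 250 bases up to the start) is shown because it holds 1 copy of GGTCA, the single arm of an estrogen response element, which reads TGACC on this strand and is in capitals, starting at -105.
Cbr1: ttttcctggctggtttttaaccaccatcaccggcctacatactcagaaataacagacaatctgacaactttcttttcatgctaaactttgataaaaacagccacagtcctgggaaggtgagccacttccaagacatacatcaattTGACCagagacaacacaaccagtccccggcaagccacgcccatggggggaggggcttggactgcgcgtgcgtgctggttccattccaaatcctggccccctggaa
The complete element, GGTCA and TGACC with 3 bases of any kind between them, was in 0 of the 7296 matched promoters and in 7 of all 27457 (0.0255%). The single arm GGTCA, searched on both strands and counted inside the complete element too, was in 24.4% of 123 promoters of genes at least 1.5-fold higher, in 41.5% of 41 of those at least 1.5-fold lower, in 36.6% of all matched genes and in 40.2% of all promoters. A match describes these letters in this window and not a bound site.

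Among the regulators of Ptgs2, with 24 of 29 members compared, the median was 0.09, and the interval lay below 0 for 7 (29.2%) and above 0 for 5 (20.8%), shares near the 24.6% and 23.5% of all genes. Cebpb, a transcription factor that binds the Ptgs2 promoter, had 241 with In-Cl, against 309 in hypoxia (-0.36, interval -0.61 to -0.11). Nfkbib, an inhibitor of nuclear factor kappa B, differed by -0.39. Tia1, a protein that represses the translation of such messages, differed by 0.38, and the interleukin 1 receptor gene Il1r1 by 0.31. Hif1a, the oxygen-regulated subunit of hypoxia-inducible factor, differed by 0.17.

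The estrogen receptor genes were near the counting floor. Esr1 had 16 reads with In-Cl, 3 under DPN and 12 under E2, against 9 in hypoxia and 4 in the control. Esr2, the gene of estrogen receptor beta, had 15 with In-Cl, 22 under DPN and 6 under E2, against 14 in hypoxia and 4 in the control, and Gper1, the membrane estrogen receptor, had 3, 6 and 3 reads in the libraries with In-Cl, DPN and E2, against 7 each in hypoxia and the control. The difference between In-Cl and hypoxia was not detectable at these depths for Esr2 and Gper1 (0.03, interval -1.12 to 1.19, and -1.06, interval -3.87 to 0.84), nor for Esr1 (0.71, interval -0.50 to 2.12); the other pairs of libraries were not compared for these genes.

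Among genes known as estrogen targets, mostly from human breast cells, 20 of 30 were compared and had a median of 0.01. The interval lay above 0 for 6 (30%) and below 0 for 4 (20%), shares near the 23.5% and 24.6% of all genes. Egr1 was the highest. Cxcl12, a chemokine, had 11166 with In-Cl, 10469 under DPN and 8300 under E2, against 8011 in hypoxia and 7857 in the control (0.48, interval 0.44 to 0.52). Among the hypoxic libraries In-Cl and DPN were the higher pair at both Cxcl12 and Egr1. Tgfa, a ligand of the epidermal growth factor receptor, was the lowest at -0.34, and Stc2, a secreted glycoprotein, differed by -0.23. Myc and Ccnd1, growth genes of the list, differed by 0.04 and 0.02.

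Genes of the coregulators that nuclear receptors recruit had a median of 0.16 over 20 of 23 members. The interval lay above 0 for 12 and below 0 for 3, beside 23.5% and 24.6% of all genes. Ncoa2, a coactivator of steroid receptors, had 455 with In-Cl, 345 under DPN and 364 under E2, against 283 in hypoxia and 272 in the control (0.68, interval 0.47 to 0.91). Med1, the Mediator subunit that contacts these receptors, had 1239 with In-Cl, 955 under DPN and 912 under E2, against 773 in hypoxia and 903 in the control (0.68, interval 0.55 to 0.81). In-Cl was the highest library at 12 of the 20 (23% of all genes), among them both of these genes, and Ncor1, a corepressor, differed by 0.44. Prmt1, an arginine methyltransferase, was the lowest of the list at -0.28.

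Among the other nuclear receptors, with 18 of 31 compared, the median was 0.06. Below Nr2c2, Rxra, the shared partner of many nuclear receptors, had 264 with In-Cl, against 191 in hypoxia (0.46). Nr2f6 and Nr2f1, orphan receptors of the COUP family, differed by -0.43 each.

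Genes of the contractile apparatus were mostly lower with In-Cl. Of 30 listed genes 26 were compared, with a median of -0.23, and the interval lay below 0 for 16 and above 0 for 6, beside 24.6% and 23.5% of all genes. The median kept its sign but was -0.08 after quantile normalization and -0.09 with DPN as the baseline. In bulk RNA, fewer cells of a type and less RNA per cell cannot be told apart.

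On the thin filament, Cnn1, the actin-binding protein calponin, had a normalised count of 4201 with In-Cl, 4857 under DPN and 6570 under E2, against 6229 in hypoxia and 6699 in the control (-0.57, interval -0.63 to -0.51). In-Cl and DPN were the 2 lowest libraries. Acta2, the smooth muscle alpha actin, had 108399 with In-Cl, 115617 under DPN and 143132 under E2, against 152452 in hypoxia and 119362 in the control (-0.49, interval -0.50 to -0.48). Its reads may be shared with other actins. Tagln, which encodes transgelin, differed by -0.39, and the tropomyosin genes Tpm2 and Tpm1 by -0.45 and -0.29.

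On the myosin side the members differed in direction. Myl9, the regulatory light chain of smooth muscle myosin, had 10831 with In-Cl, 11910 under DPN and 14501 under E2, against 14961 in hypoxia and 10861 in the control (-0.47, interval -0.50 to -0.43). Mylk, the kinase that phosphorylates this chain, had 712 with In-Cl, 517 under DPN and 608 under E2, against 543 in hypoxia and 579 in the control (0.39, interval 0.23 to 0.56). Ppp1r12a, a subunit of the phosphatase that reverses the reaction, differed by 0.24. The heavy chain gene Myh11 had 283 with In-Cl and 280 in hypoxia, and its interval of -0.23 to 0.26 covers 0.

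In-Cl was lower than hypoxia at 17 of the 26 contractile genes and was the lowest of all 5 libraries at 14, beside 26.2% of all genes. The interval of the difference from hypoxia lay below 0 for 15 with DPN (15.3% of all genes) and for 11 with E2 (15.7%). A CArG box was found in 2 of 22 matched contractile promoters (9.09%, beside 1.25% of the matched genes and 1.64% of all promoters), those of Fhl2 and Fhl1, which differed by 0.25 and -0.08. The transcription factors and signalling genes listed as controlling this set had a median of 0.20 over 17 members. The interval lay above 0 for 9 of them and below 0 for 3, beside 23.5% and 24.6% of all genes. Tead1, the partner of YAP, differed by 0.50 and Mef2a, a muscle transcription factor, by 0.42, while Klf5 and Srf differed by -0.23 and -0.22. Myocd, the smooth muscle coactivator of serum response factor, differed by 0.23.

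**Figure D4:**
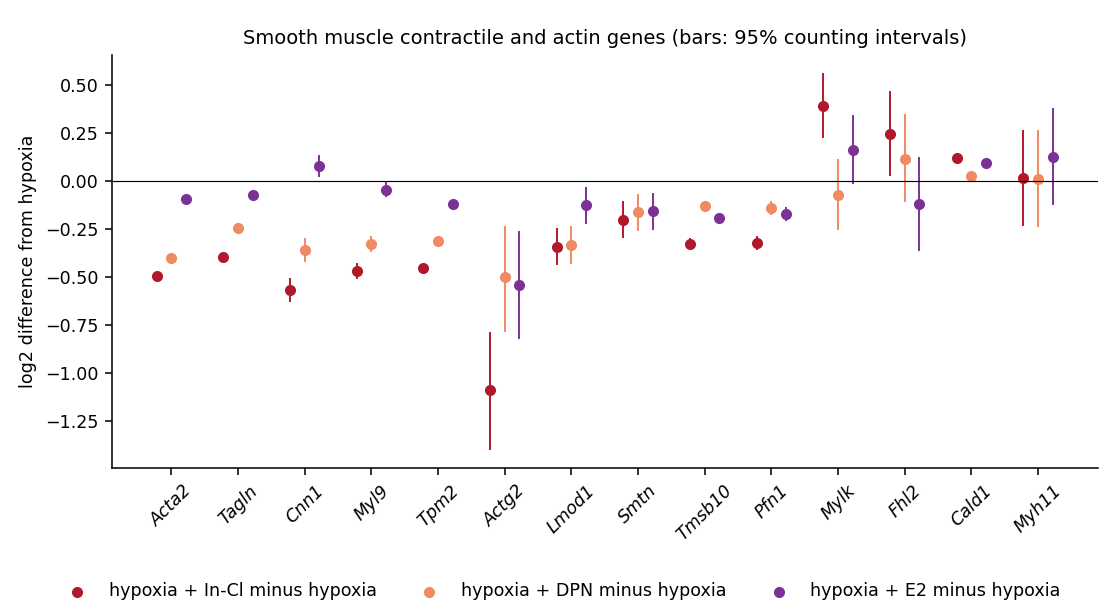
Log2 difference from the hypoxia library (vertical axis) for 14 contractile and actin genes with In-Cl, DPN and E2; points are 1 library against 1 and bars are 95% counting intervals. In-Cl is at or below -0.20 at the first 10 genes (Acta2 to Pfn1) and above 0 at Mylk and Fhl2. The 14 genes are a selection. Over the lists In-Cl was below hypoxia at 17 of 26 contractile genes and 22 of 26 actin assembly genes.

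Actin assembly genes were also mostly lower. The median was -0.18 over the 26 compared. Their interval lay below 0 for 22 and above 0 for 4, beside 24.6% and 23.5% of all genes. Tmsb10 and Pfn1, which bind actin monomers, differed by -0.33 and -0.32. The formin genes Daam1 and Diaph1, whose products build straight filaments, were on the other side at 0.45 and 0.25.

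Cytosolic ribosomal protein genes differed in 1 direction. Of 84 listed rows 81 were compared, and the interval lay below 0 for all 81, beside 24.6% of all genes, with a median of -0.25. The range ran from -0.39 at Rps28 to -0.08 at Rpl21. In-Cl was the lowest of the 5 libraries at 57 of them, beside 26.2% of all genes. The interval was below 0 for 62 with DPN (15.3% of all genes) and 76 with E2 (15.7%). After quantile normalization the median was -0.13, and Rps9 and Rpl21 changed sign to 0.04 and 0.06. Many of these genes have near-identical pseudogenes, so single values are uncertain. The share over all genes is not matched for abundance. In the highest sixth of genes by mean count the interval lay below 0 for 745 of 1469, with a median difference of -0.065.

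Ribosomal protein messages often start with a 5' terminal oligopyrimidine tract, a C followed by a run of C and T, through which the growth regulator TOR controls their translation. The tract, taken as a C at the RefSeq start followed by at least 4 pyrimidines, was at 24 of the 65 matched ribosomal protein genes (36.9%), 2.74% of all matched genes and 2.63% of all promoters. The starts of the 4 lowest genes that carry it are shown with the tract in capitals, 10 bases before the start and 20 from it, because the tract is known from this group of genes (build GRCr8, chr9:81748081-81748110 plus strand, chr20:6390523-6390552 plus, chr18:70856266-70856295 plus and chr2:177964587-177964616 minus).
Rpl37a: cccgttgcgtCTCTTCCTCTTCgggcttgg
Rpl10a: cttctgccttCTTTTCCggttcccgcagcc
Rpl17: ttcgcgcttcCTCTTCCTgttagcggccag
Rps27: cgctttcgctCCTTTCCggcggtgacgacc
Rpl37a, Rpl10a, Rpl17 and Rps27 differed by -0.32, -0.32, -0.31 and -0.30. The 200 genes with a tract, ribosomal or not, had a median of -0.06. Translation factors had a median of -0.11 over 41 members, from -0.34 at Eif6, which keeps the large ribosomal subunit free, to 0.29 at Eif4ebp2, an inhibitor of cap binding that TOR phosphorylates.

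Mitochondrial respiration genes were lower as well. Complex I had a median of -0.22 over 34 members, with the interval below 0 for 28 and above 0 for 0. Its accessory subunits Ndufa2 and Ndufb6 differed by -0.42 each, and Ndufs1, the largest subunit of the complex, by 0.08 (interval -0.02 to 0.18). Complexes II, III and IV had a median of -0.20 over 25 members, with Cox5b at -0.40 and the large succinate dehydrogenase subunit Sdha at 0.11. The ATP synthase genes had a median of -0.20, with all 16 intervals below 0. Mitochondrial ribosomal proteins had a median of -0.16 over 69 members, with 31 intervals below 0 and 1 above. They ran from Mrps24 at -0.50 to Mrps22 at 0.40. Over all genes the interval lay below 0 for 24.6% and above 0 for 23.5%.

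At these mitochondrial genes In-Cl was often the lowest library: at 29 of 34 for complex I, 20 of 25 for complexes II to IV, 15 of 16 for ATP synthase and 43 of 69 for the mitochondrial ribosome, beside 26.2% of all genes. The medians against hypoxia were -0.04 under DPN and -0.04 under E2 for complex I, with intervals below 0 at 14 and 9 of 34 genes. For ATP synthase they were -0.04 and -0.05, with 7 of 16 below 0 under each compound, and for the mitochondrial ribosome -0.07 and -0.04, with 8 and 14 of 69 below 0. Over all genes the interval lay below 0 for 15.3% with DPN and 15.7% with E2.

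Splicing and protein breakdown genes were on the same side. The list named for the Sm and LSm rings of splicing had a median of -0.19 over 23 members, with 17 intervals below 0 and 2 above. Lsm2 differed by -0.55. The list also holds proteins outside these rings, among them the 2 above 0. These were Snrnp70, the RNA-binding protein of the U1 particle, at 0.19 and Lsm14a at 0.20. The proteasome had a median of -0.15 over 32 members, with 24 intervals below 0 and 0 above. Psmb2, a core subunit, differed by -0.32. Beside these lists, 24.6% of all genes had the interval below 0 and 23.5% above. RNA polymerase II subunits ran from Polr2i at -0.87 and Polr2j at -0.36 to Polr2b, the second largest subunit, at 0.22. Rbm3, a cold-inducible RNA-binding protein, had 7057 with In-Cl, 7402 under DPN and 12034 under E2, against 10921 in hypoxia and 7245 in the control, so In-Cl, DPN and the control formed the lower set.

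**Figure D5:**
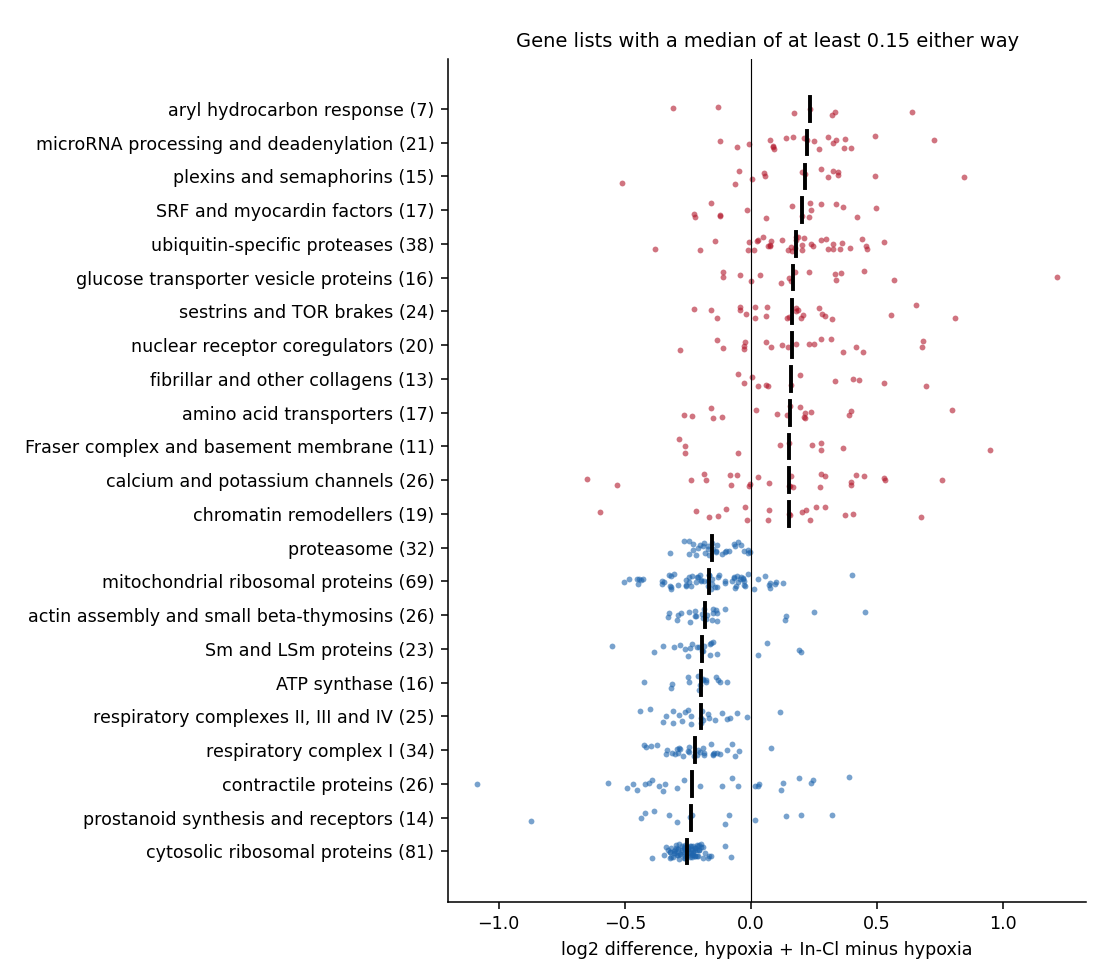
Log2 difference between the In-Cl and hypoxia libraries (horizontal axis) for the members of the 23 gene lists whose median was at least 0.15 in either direction; each point is 1 gene, the black bar is the list's median and the number of genes compared is in brackets. Upper lists (red) have medians from 0.15 to 0.24 and lower lists (blue) from -0.15 to -0.25.

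Of the 63 lists with at least 4 genes compared, 13 had a median of 0.15 or more, 10 had -0.15 or less and 40 lay between. With the mean of hypoxia, DPN and E2 as the baseline 12 lists were past this limit in place of 23.

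Genes that silence or shorten messenger RNA were among the lists on the higher side. MicroRNA processing and deadenylation genes had a median of 0.22 over 21 members. Their interval lay above 0 for 14 and below 0 for 1, beside 23.5% and 24.6% of all genes. Ago2, the argonaute that cuts targets of small RNAs, had 378 with In-Cl, 310 under DPN and 271 under E2, against 228 in hypoxia and 342 in the control (0.73, interval 0.48 to 0.97). Tnrc6b, the argonaute partner, differed by 0.49, and Cnot1, the scaffold of the deadenylase complex, by 0.37. In nonsense-mediated decay, with a median of 0.08, Upf2 differed by 0.50, and Eif4a3 and Magoh of the exon junction complex by -0.19 each.

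Genes that act on chromatin and ubiquitin followed. Ubiquitin-specific proteases had a median of 0.18 over 38 members, with 24 intervals above 0 and 2 below; Usp31 differed by 0.53 and Usp9x by 0.46. Chromatin remodellers had a median of 0.15, from Chd2, a helicase of active genes, at 0.68 to Ino80b, a subunit of the INO80 complex, at -0.60. In the polycomb and trithorax list, with a median of 0.08, Nsd1, a histone methyltransferase, had 1401 with In-Cl, against 881 in hypoxia (0.67), and Pcgf1 was at -0.32. Zinc finger protein genes, with 138 compared, had a median of 0.13, 46 intervals above 0 and 9 below. Among all genes 23.5% of intervals lay above 0 and 24.6% below.

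The sestrin and TOR brake list had a median of 0.16 over 24 members, with 12 intervals above 0 and 3 below. It also holds TOR itself (Mtor, 0.18) and insulin signalling genes such as Irs1, so it does not describe brakes alone. The 3 intervals below 0 were at Akt1s1 (-0.225), Rheb (-0.158) and Ddit4 (-0.136). Among all genes 23.5% of intervals lay above 0 and 24.6% below. Sesn3, a sestrin that restrains TOR, had 1153 with In-Cl, 926 under DPN and 833 under E2, against 658 in hypoxia and 646 in the control (0.81, interval 0.67 to 0.95). Irs1, the insulin receptor substrate, differed by 0.66 and Insr, the receptor itself, by 0.39. The arginine and urea cycle list had a median of -0.14 over 14 members, with 8 intervals below 0 and 3 above. Slc7a2, which carries cationic amino acids, had 831 with In-Cl, against 477 in hypoxia (0.80), while Asl, the lyase that makes arginine, had 581 with In-Cl, 966 under DPN and 583 under E2, against 970 in hypoxia and 828 in the control (-0.74, interval -0.89 to -0.59).

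The aryl hydrocarbon response list was small, with 7 of 11 members compared, and its median was 0.24. Ahr, the receptor that senses aromatic compounds, had 1906 with In-Cl, 1469 under DPN and 1395 under E2, against 1224 in hypoxia and 1015 in the control (0.64, interval 0.53 to 0.75). Its target Cyp1b1, a cytochrome P450 that also oxidises estradiol, had 1511 with In-Cl, 1255 under DPN and 1335 under E2, against 1198 in hypoxia and 546 in the control (0.33, interval 0.22 to 0.45). In-Cl was the highest library at both. Nqo1, another target, differed by -0.13 (interval -0.26 to 0.00).

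Matrix genes were divided by family. Of 13 collagen genes the interval lay above 0 for 10 and below 0 for 0, beside 23.5% and 24.6% of all genes. Col27a1 and Col11a1, chains of fibrillar collagens, differed by 0.69 and 0.53. Col1a1, the main chain of type I collagen, had 284880 with In-Cl and 284288 in hypoxia. Among elastic fibre genes Fbn1, the fibrillin that scaffolds the fibre, had 17281 with In-Cl, against 12988 in hypoxia (0.41), and Mfap5, a small protein bound to fibrillin, had 674 with In-Cl, against 1072 in hypoxia (-0.67, interval -0.81 to -0.53). Among proteoglycans Omd and Fmod, small leucine-rich proteins, differed by 0.75 and 0.64, Postn, a matricellular protein, by -0.42 and Acan by -0.52. In the basement membrane list the interval lay above 0 for 7 of 11 genes and below 0 for 3. Of its laminin chains, Lamc1 differed by 0.37 and Lama1 by -0.26. The integrin list had a median of 0.02 over 13 genes, with 5 intervals above 0 and 4 below. Itga1, a collagen-binding integrin, differed by 0.76 and Itga5 by -0.19. Over all genes the shares above and below 0 were 23.5% and 24.6%.

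Plexins and semaphorins had a median of 0.21 over 15 members; Plxna3, a semaphorin receptor, differed by 0.84 and Sema7a by -0.51. Calcium and potassium channels and pumps had a median of 0.15, from Atp2b4, a plasma membrane calcium pump, at 0.76 to Kcnn4, a calcium-activated potassium channel, at -0.65. Metal transporters had a median of 0.12 over 28 members, with 11 intervals above 0 and 6 below. Atp7a, the copper exporter, was the highest at 0.77 and Slc39a3 the lowest at -0.46. Of the vasoactive receptor genes 12 of 35 were compared, with a median of -0.05 and 8 of them below 0. The interval lay above 0 for 3 (25%) and below 0 for 0, beside 23.5% and 24.6% of all genes. Gucy1b3, a subunit of the nitric oxide receptor, had 479 with In-Cl, 419 under DPN and 343 under E2, against 301 in hypoxia and 492 in the control (0.67, interval 0.46 to 0.89).

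The response to hypoxia itself was compared through genes chosen on the DPN, E2 and control libraries. Only the abundance limit, a mean over all 5 libraries, used the In-Cl and hypoxia values. A set of 191 genes stood 2-fold or more above the control in the mean of the DPN and E2 libraries. Their median difference between In-Cl and hypoxia was -0.01, with the interval above 0 for 50 (26.2%) and below 0 for 53 (27.7%). Of these genes 174 also passed 2-fold above the control in the In-Cl library (2.73% of all genes did) and 167 in the hypoxia library (2.27%). The choice and all counts against the control here share 1 control library, which favours passing in advance. On the other side 43 genes were at least 2-fold below the control in that mean, with a median of -0.19, 21 intervals below 0 (48.8%) and 6 above; 27 of them were also at least 2-fold below the control with In-Cl (0.737% of all genes) and 18 in hypoxia (0.408%). Nrip3, Ascl3, Tmem9b, St5 and Dennd5a, each lower with In-Cl than in hypoxia, are among the 43 through the DPN library alone. With the condition met in DPN and in E2 separately, a choice made after the data were seen, 24 genes were left below the control, with a median of -0.18, 10 intervals below 0 (41.7%) and 3 above, and 169 above it, with a median of -0.04, 43 intervals above 0 (25.4%) and 51 below (30.2%).

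Within the fixed hypoxia list, 38 of 44 genes were compared, with a median of -0.06. Intervals lay below 0 for 16 (42.1%) and above 0 for 9 (23.7%), beside 24.6% and 23.5% of all genes. Kdm3a, an oxygen-dependent histone demethylase, had 4813 with In-Cl, 4155 under DPN and 4266 under E2, against 3853 in hypoxia and 669 in the control (0.32). Car12, a carbonic anhydrase, had 141 with In-Cl, 164 under DPN and 262 under E2, against 213 in hypoxia and 1.92 in the control (-0.59, interval -0.91 to -0.28). Cox4i2, the cytochrome oxidase isoform of low oxygen, differed by -0.44 and Vegfa by 0.13. Glycolysis genes had a median of -0.11; Gapdh differed by -0.27 and Hk2, a hexokinase, by 0.36.

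In-Cl and DPN were compared directly as the 1 pair at a matched dose (0.1 µM, 24 h), again with 1 library a side and no test. With In-Cl, 84 genes were at least 1.5-fold above DPN (0.953%) and 28 at least 1.5-fold below (0.318%). The 5 genes furthest above DPN were Ascl3, Nrip3, Tmem9b, Dennd5a and St5, neighbours that were low in the DPN library alone; St5 had 28016 with In-Cl, 28944 with E2 and 32093 in hypoxia, against 3242 with DPN. Lowest against DPN were Cnnm1 (-2.95), Entpd7 (-1.95), Wwox, an oxidoreductase (-0.83), Notch4 (-0.81) and Cyp21a1, a steroid hydroxylase (-0.80).

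The genes past 1.5-fold against hypoxia were read in the other 2 compound libraries, which share that hypoxia library. The 158 higher genes had median differences from hypoxia of 0.67 (In-Cl), 0.29 (DPN) and 0.33 (E2), and 28 of them were also at least 1.5-fold above DPN. The 50 lower genes had medians of -0.67 (In-Cl), -0.41 (DPN) and -0.38 (E2), and 7 were also at least 1.5-fold below DPN. Dcp2 and Myot were examples of the first kind (In-Cl minus DPN 1.13 and 1.16), whereas Egr1 and Chm differed from DPN by 0.14 and 0.06.

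E2 was used at another dose (10 nM), so its values stand side by side only. Adam11 differed from hypoxia by 1.92 with In-Cl, 1.29 with E2 and -0.53 with DPN. Cnnm1 differed by -2.78, -1.73 and 0.16 and Entpd7 by -1.76, -1.40 and 0.19 in the same order of compounds. Xdh, the xanthine oxidase gene, chosen after its values were seen, was displaced in opposite directions, at 0.83 in the In-Cl library, -0.71 in the E2 library and 0.04 in the DPN library.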

How the data were processed

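RNA of 5 cultures was made into stranded SMARTer libraries, per the labels' protocols. The authors deposited 1 table of log2 values per library. Per the submitters' processing notes, TopHat and edgeR were used with build rn6. Which program counted the reads, with which annotation, strand setting and versions, is not given in the sources used here. Deposited values behave as log2(library-adjusted read count + 1), so the linear value (2 raised to the deposited value, minus 1) is called the normalised read count, and all differences and folds are on the log2(value + 1) scale. Approximate reads came from dividing by each library's step (0.848 to 1.10); 94.4% to 100% of low values lay within 0.2 read of a whole number. Intervals are exact 95% Clopper-Pearson intervals of the share of reads in 2 libraries and cover counting error only; the libraries carry no known molecular identifiers, so reads are not independent molecules.

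The members and the 64 lists were chosen with earlier results of these data known. Named genes were the 15 highest and 15 lowest (uncharacterised loci left out), the 2 highest and 2 lowest of each list with at least 4 members, prostanoid and estrogen receptor genes, cell markers and the 5 highest and lowest against DPN; further list members were named after their values were seen. Promoters (RefSeq, GRCr8, first listed start) matched 82.8% of genes by symbol. RefSeq was used for names and neighbours. A summary by protein length was not made. Alternatives were other scalings, pseudocounts, abundance limits and baselines. Python 3.11.15, numpy 2.4.6, pandas 2.3.3, scipy 1.17.1 and matplotlib 3.10.9 were used.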

Additional observations from a re-analysis of the deposited data

How the results depend on the processing

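Counts of genes depended on the abundance limit and the baseline. With a mean of at least 30, 47 genes were at least 2-fold higher and 22 lower, 281 and 121 at 1.5-fold, and 280 were past 1.5-fold between In-Cl and DPN (112 at the limit used). With a mean of at least 300 these were 4 and 0, 86 and 13, and 38; with no limit 475 and 637, 1139 and 933, and 1972. With the mean of hypoxia, DPN and E2 as baseline, 2 genes were at least 2-fold lower, 53 and 20 past 1.5-fold and 12 lists past 0.15; with DPN as baseline 3, 84 and 28, and 11. Median centring, quantile normalization, a pseudocount of 10 and all rows kept the counts within 1.5 times. No list median of 0.15 or more in size changed sign; over all lists and settings 552 medians moved by less than the typical counting interval of their members reaches to 1 side, and 15 by more. Sign changes were counted only at named genes whose interval against hypoxia excluded 0, and 32 such values changed sign. Under quantile normalization they were Rps9 (0.041) and Rpl21 (0.060). Against the mean of 3 libraries they were Zfp949 0.023, Nrip3 1.933, Ascl3 2.478, Tmem9b 1.131, St5 0.956, Dennd5a 0.957, Nqo1 0.009 and Kif5c -0.012. Against DPN they were Hspb6 0.105, Cadm4 0.064, Lsm2 0.050, Acan 0.064, Zfp949 0.203, Pcgf1 0.044, Jam2 0.048, Col18a1 0.036, Nid2 0.042, Nrip3 6.090, Ascl3 7.721, Tmem9b 3.701, St5 3.111, Dennd5a 3.120, Nqo1 0.213, Cnot3 0.032, Slc2a1 0.025, Hspd1 -0.065, Abcc4 -0.072, Slc36a4 -0.018, Kif5c -0.167 and Omd -0.027. The cause was not tested, apart from the fewer or more genes that each limit admits and the run of 5 neighbours that is low with DPN.

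No paired analysis was possible because each group is 1 library, and for the same reason no replicate could be left out. Depth limits genes near the abundance limit: the typical counting interval reached 0.33 to either side in the lowest sixth of genes and 0.06 in the highest.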
